A study of Mus musculus with 4 samples.

Results

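The collagens and the enzymes that build them were followed in C2C12 myoblasts, a mouse line derived from satellite cells, the stem cells of skeletal muscle. Members were taken by gene symbol: every gene named Col, a number, a and a number, plus the prolyl 4-hydroxylase alpha subunits (P4ha1 to P4ha3), the lysyl hydroxylases (Plod1 to Plod3), the lysyl oxidases (Lox, Loxl1 to Loxl4), the collagen chaperone Serpinh1 and the proteinase enhancer Pcolce. The rule found 55 of the 19751 genes that could be named on the array, with 82 of its 39429 probes. Of these 55 genes, 42 were tested, and 13 were too dim.

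Each of 4 two-colour arrays compared 1 palmitate-treated with 1 control culture. Treated myoblasts received 0.1 mmol/l palmitate, a saturated fatty acid, for 48 h in medium with 5% foetal bovine serum, and their RNA carried the red dye Cy5. Control myoblasts were given ethanol and fatty acid-free bovine serum albumin without palmitate, and their RNA carried the green dye Cy3. The treatment protocol gives the control medium 5% serum, whereas the control channel's label gives 10% HS. If the label is right, treated and control media also differed in serum on all 4 arrays, and palmitate and serum cannot be told apart. Both groups were C2C12 cells on day 3 of proliferation, so the cultures represent a single cell line without neighbouring cells of muscle. The dyes were never exchanged, so palmitate and dye cannot be told apart. The labels call the arrays biological replicates, and the p-values measure the spread between these 4 arrays.

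A collagen molecule is a helix of 3 alpha chains. Its chains are hydroxylated in the endoplasmic reticulum by the P4ha and Plod enzymes, folded with the help of the chaperone Serpinh1 (HSP47) and secreted. Proteinases then cut off the end propeptides, a step that Pcolce enhances, and Lox enzymes cross-link the fibrils. In muscle, fibrillar types I, III and V form the connective tissue around fibres, while types IV and VI make up the basement membrane and the layer next to it.

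The data are log2 ratios of palmitate over control for each array: a value of 0 is equal signal, 1 is a doubling and -1 a halving. No member passed an adjusted p of 0.05 in limma (Benjamini-Hochberg over 24055 probes), nor did any probe on the array in either direction. Therefore no member is called changed over the 4 arrays. At an unadjusted p of 0.05 in limma, 7 members were lower (16.7% of 42) and 3 were higher (7.14%). Among all 13666 tested genes, 13.4% were lower and 10.8% higher at this limit, so the members' shares were near the background. The 3 higher members were Col3a1, Col4a1 and Lox, and the 7 lower members were Col5a2, Pcolce, Col4a5, Col4a6, Col5a1, Loxl2 and Col18a1. Bulk RNA cannot tell fewer cells of a type apart from less RNA per cell.

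The median log2 ratio of the 42 members was -0.083, compared with 0.0017 for all tested genes. On replicates 1 to 4 the member median was -0.19, -0.18, 0.08 and -0.02 (SD 0.13), so its sign turned between arrays. In the members 61.9% of the means were below 0, compared with 49.8% of all genes. In the plot of ratio against signal the members lie within the cloud of the other genes, and Col3a1 has the highest mean among them.

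**Figure D1:**
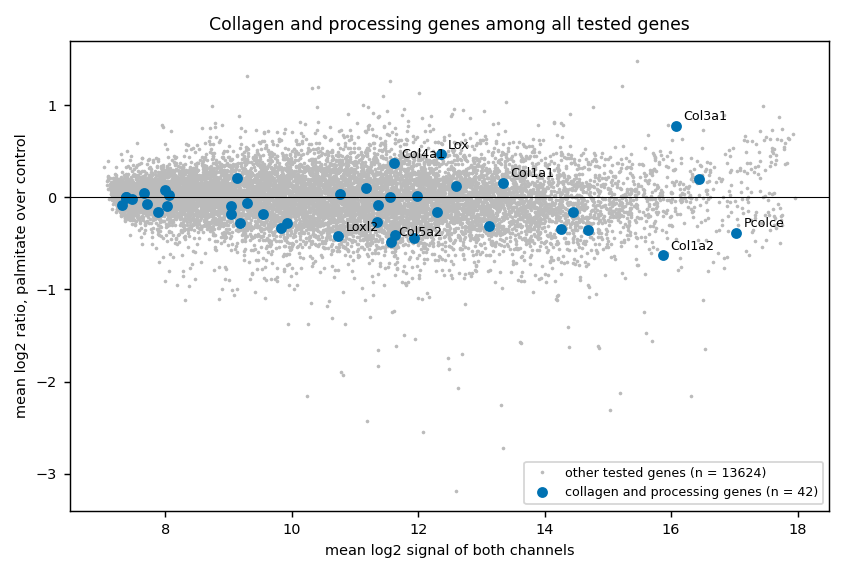
Mean log2 ratio of palmitate over control (y axis, 4 arrays) against the mean log2 signal of both channels (x axis) for the 42 tested collagen and processing genes (blue) and 13624 other tested genes (grey). Member means run from -0.63 for Col1a2 to 0.78 for Col3a1.

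Replicate 1 stood apart from the other arrays. Across the 42 members, which are genes and not independent replicates, the correlation of an array with the average of the remaining 3 was 0.089 for replicate 1 and 0.52 to 0.79 for replicates 2 to 4. Over all 24055 tested probes it was -0.076, against 0.65 to 0.82. For 3 probes of ribosomal RNA the median log2 ratio was 1.01 on replicate 1 and -3.27, -2.66 and -1.68 on replicates 2 to 4, and the part of such differences in the member values was not tested. Without replicate 1, 9 members passed the adjusted p of 0.05 in limma: Col4a5, Col4a6, Col5a2, Col6a1, Loxl2 and Pcolce were lower, and Col3a1, Col4a1 and Lox higher. These were 6 and 3 of 42 members, while 9.83% of all genes were lower and 8.69% higher in that fit. Without replicate 2, 3 or 4 no member passed (lowest adjusted p in limma 0.445, 0.338 and 0.309).

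Col4a5 and Col4a6 lie head to head and had similar mean ratios by their brightest probes (values are given with type IV collagen). Upstream sequences are shown for both genes and for Col3a1, the member with the highest ratio. They are the 200 bases before the transcription start, 5′ to 3′ on the gene's own strand, from RefSeq (GRCm38.p6), with Col3a1 at chr1:45311338-45311537 (plus), Col4a5 at chrX:141475219-141475418 (plus) and Col4a6 at chrX:141474077-141474276 (minus). Capitals mark matches, on either strand, to the CCAAT box (CCAAT), the TATA box (TATAA) and the Smad element CAGAC, the core sequence bound by the Smad proteins of TGF-beta signalling.
Col3a1: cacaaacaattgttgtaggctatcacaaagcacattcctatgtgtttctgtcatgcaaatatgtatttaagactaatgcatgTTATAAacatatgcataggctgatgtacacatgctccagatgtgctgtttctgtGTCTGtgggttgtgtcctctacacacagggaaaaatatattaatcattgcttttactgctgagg
Col4a5: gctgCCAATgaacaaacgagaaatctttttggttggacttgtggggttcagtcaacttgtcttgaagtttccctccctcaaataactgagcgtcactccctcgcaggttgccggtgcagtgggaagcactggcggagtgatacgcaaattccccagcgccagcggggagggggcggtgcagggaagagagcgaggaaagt
Col4a6: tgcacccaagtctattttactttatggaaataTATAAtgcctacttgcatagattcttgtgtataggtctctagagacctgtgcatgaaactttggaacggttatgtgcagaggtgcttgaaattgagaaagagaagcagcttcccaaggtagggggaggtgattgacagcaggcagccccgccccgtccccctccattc

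The Col3a1 window holds TATAA, read on both strands as the overlapping run TTATAA, and a Smad element on the opposite strand (GTCTG). The Col4a5 window holds CCAAT and no TATAA, and the Col4a6 window holds TATAA. RefSeq windows of 250 bases before to 50 after the start were at hand for 32 of the 42 tested members. In the 35 windows of these genes, CCAAT stood in 13 (37.1%, against 37.4% of all 32851 windows), TATAA in 8 (22.9%, against 24.9%) and CAGAC in 16 (45.7%, against 49.6%), each on either strand. These matches only describe letters.

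Col3a1 encodes the alpha chain of type III collagen, a fibril former of reticular and healing tissue. Its log2 ratio was 0.07, 0.90, 1.07 and 1.08 on replicates 1 to 4. Thus 3 arrays lay close together and replicate 1 was near 0. The mean was 0.78 ± 0.48 (SD, n = 4 arrays), a 1.72-fold level, with an adjusted p of 0.123 in limma. In the exact two-sided sign-flip test its array values were 1 of the 2 most extreme of 16 sign patterns, the lowest p that 4 arrays allow, which is above 0.05. Log2 signal was 15.54 to 15.86 in the control and 15.92 to 16.70 in the palmitate cultures, so the ranges did not overlap. Without replicate 1 the mean was 1.02 (2.02-fold, adjusted p = 0.00228 in limma). The unadjusted p of Col3a1 stayed under 0.05 whichever array was left out.

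Type I collagen, the main fibrillar collagen of connective tissue, joins 2 Col1a1 chains with 1 Col1a2 chain. Col1a1 had log2 ratios of -0.62, 0.09, 0.70 and 0.46 and a mean of 0.16 ± 0.57 (SD, n = 4; limma adjusted p = 0.686). The sign turned between arrays, and without replicate 3 the mean was -0.02. Col1a2 had log2 ratios of -0.40, -1.74, 0.28 and -0.65, a mean of -0.63 ± 0.84 (SD, n = 4; limma adjusted p = 0.275). It was far below 0 on replicate 2 and above 0 on replicate 3. The spread of these 2 genes exceeded their means, and their 95% intervals, from -0.35 to 0.66 and from -1.34 to 0.09, do not exclude 0.

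Type V collagen sits inside type I fibrils and helps to set their width. Col5a2 had log2 ratios of -0.33, -0.75, -0.33 and -0.50, lower in palmitate on all 4 arrays, replicate 1 included. Its mean was -0.48 ± 0.20 (SD, n = 4), a 1.39-fold lower level, with an adjusted p of 0.118 in limma. Col5a2 signal (log2) was 11.75 to 11.98 in control and 11.03 to 11.48 in palmitate cultures, without overlap. Without replicate 1 the mean was -0.53 (limma adjusted p = 0.0210), and its unadjusted p stayed under 0.05 whichever array was left out.

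Col5a1, the partner chain of Col5a2, had log2 ratios of -0.32, -0.70, 0.03 and -0.38. Replicate 3 alone was not below 0. The mean was -0.34 ± 0.30 (SD, n = 4; limma adjusted p = 0.197), and it did not pass without replicate 1 either (-0.35, limma adjusted p = 0.136). Col5a3, another type V chain named after its values were seen, averaged -0.44 ± 0.49 (SD, n = 4; limma adjusted p = 0.230). Among the other fibrillar genes, Col11a1 was below 0 on all 4 arrays (-0.05 to -0.23). Col2a1 and Col11a2, cartilage collagens, had means of 0.05 and -0.08. Col11a1, Col2a1 and Col11a2 were dim, with mean log2 signals of 7.88, 7.66 and 7.31, against 7.26 for a probe of the untested Col15a1. Of 9 tested fibrillar genes, 2 were lower (22.2%, against 13.4% of all genes) and 1 higher (11.1%, against 10.8%) at the unadjusted p of 0.05, and 6 had means below 0 (66.7%, against 49.8%).

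**Figure D2:**
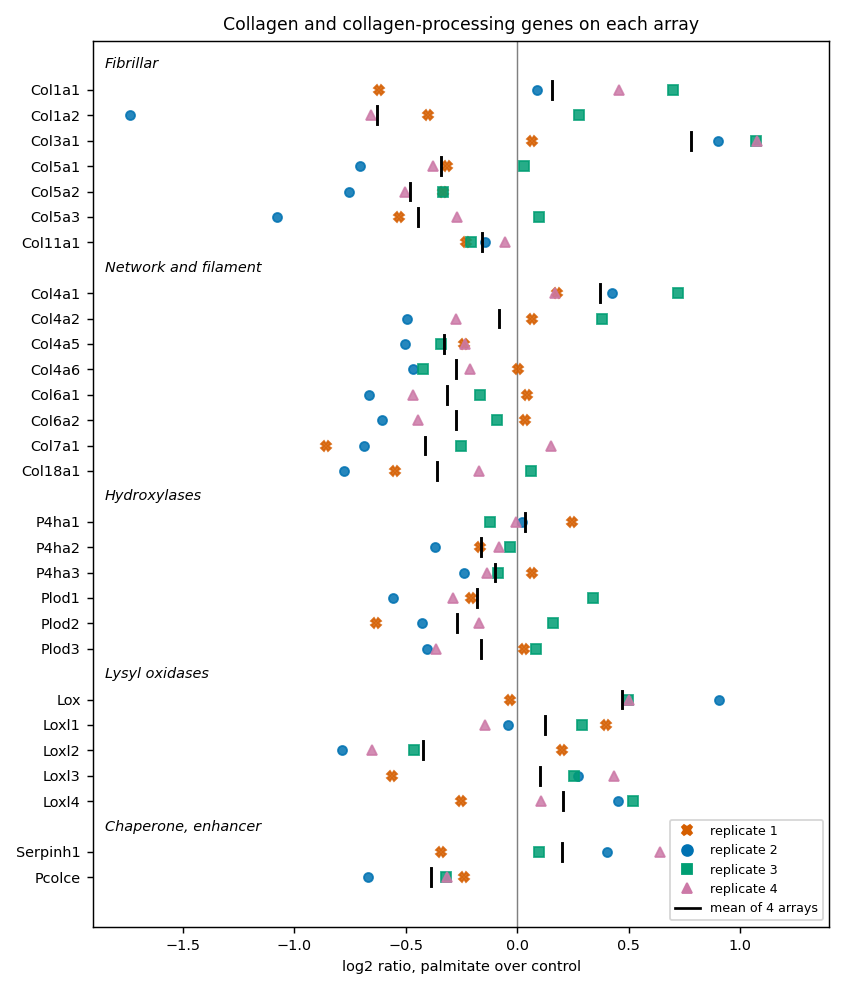
Palmitate over control as log2 ratio (x axis) on each of the 4 arrays for 28 collagen and processing genes, grouped by role, with the mean as a black bar. Replicate 1 (orange crosses) is often on the other side of 0 from replicates 2 to 4, as for Loxl2 and Loxl3, whereas Col5a2, Col4a5 and Pcolce are below 0 on all 4 arrays and Col3a1 and Col4a1 above.

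Type IV collagen is the sheet-forming collagen of basement membranes, and its commonest trimer holds 2 Col4a1 chains and 1 Col4a2 chain. Col4a1 had log2 ratios of 0.18, 0.42, 0.72 and 0.17, above 0 on all 4 arrays. Its mean was 0.37 ± 0.26 (SD, n = 4), a 1.30-fold level (limma adjusted p = 0.153). Signal of Col4a1 (log2) was 11.36 to 11.48 in control and 11.59 to 12.08 in palmitate cultures, without overlap. The adjusted p reached 0.0496 in limma without replicate 1 (mean 0.44), and the unadjusted p was no longer under 0.05 without replicate 2 or without replicate 3.

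Col4a2 had log2 ratios of 0.07, -0.49, 0.38 and -0.27, with 2 arrays on each side of 0. Its mean was -0.08 ± 0.38 (SD, n = 4; limma adjusted p = 0.780), with a 95% interval of -0.44 to 0.28, and 0.06 without replicate 2. The genes Col4a1 and Col4a2 lie head to head, and their RefSeq starts on chromosome 8 are 21 bases apart. The ratio of Col4a1 was above that of Col4a2 on all 4 arrays, by 0.11, 0.92, 0.34 and 0.44.

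Col4a5 and Col4a6 encode chains of the type IV network found in the basement membrane of smooth muscle and some epithelia. Their RefSeq starts lie 1343 bases apart on the X chromosome, on opposite strands, and their upstream sequences are given above. Col4a5 had log2 ratios of -0.24, -0.50, -0.34 and -0.23, below 0 on all arrays, with a mean of -0.33 ± 0.13 (SD, n = 4; 1.26-fold lower, limma adjusted p = 0.129). Col4a6 had log2 ratios of 0.00, -0.47, -0.42 and -0.21 and a mean of -0.27 ± 0.22 (SD, n = 4; limma adjusted p = 0.201). Replicate 1 of Col4a6 was at 0, and the other 3 arrays were below it. A second, dimmer Col4a6 probe did not show this pattern. It had log2 ratios of -0.39, -0.16, -0.13 and -0.01, lowest on replicate 1 (mean -0.17, limma adjusted p = 0.312). Without replicate 1 the means of Col4a5 and of the brighter Col4a6 probe were -0.36 and -0.37, with adjusted p of 0.0434 and 0.0412 in limma. Col4a5 minus the brighter Col4a6 probe was -0.05 ± 0.13 (SD, n = 4) within arrays, and -0.24 on replicate 1. For Col4a5 alone of the pair, the control range of log2 signal (9.92 to 10.06) was above the palmitate range (9.55 to 9.81).

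Of the remaining network formers, Col4a4, Col8a1, Col8a2 and Col10a1 had means from -0.18 to 0.08, and none had an unadjusted p under 0.05. Col4a4 and Col10a1 were dim, with mean log2 signals of 7.99 and 7.71. The network group thus held 2 lower and 1 higher of 8 tested genes, where all genes had 13.4% lower and 10.8% higher. The probes of Col4a3, Col6a4, Col6a5, Col6a6, Col9a3, Col13a1, Col19a1 and Col26a1 (8 genes) were not well above background in any culture. Col15a1 and Col20a1 passed on up to 3 arrays of a channel, and Col24a1, Col27a1 and Col28a1 on 1, so these 5 were not tested.

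**Figure D3:**
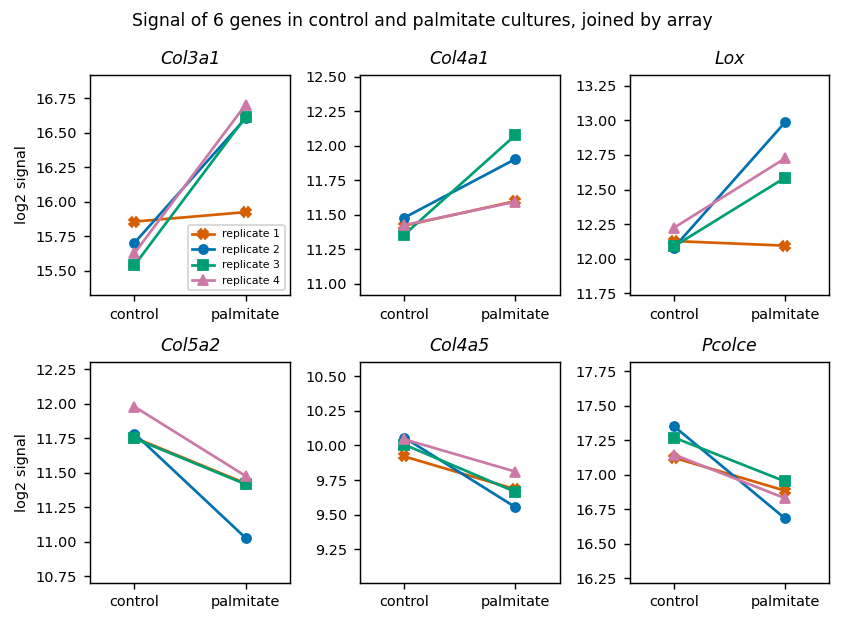
Log2 signal (y axis, same span of 1.6 in each panel) of 6 members in control and palmitate cultures, with a line joining the 2 cultures of each array. All lines slope up for Col4a1 and down for Col5a2, Col4a5 and Pcolce, and for Col3a1 and Lox the line of replicate 1 is nearly flat.

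Type VI collagen forms beaded filaments around muscle fibres, and mutations in its genes cause muscle disease. Col6a1 had log2 ratios of 0.04, -0.66, -0.17 and -0.47 (mean -0.31 ± 0.31, SD, n = 4; limma adjusted p = 0.230). Col6a2 had log2 ratios of 0.04, -0.61, -0.09 and -0.44 (mean -0.28 ± 0.30, SD, n = 4; limma adjusted p = 0.263). The values of these chains were close on every array: the difference Col6a1 minus Col6a2 ran from -0.08 to 0.01, with a mean of -0.04 ± 0.04 (SD, n = 4). Without replicate 1, Col6a1 reached an adjusted p of 0.0449 in limma (mean -0.43), and Col6a2 did not pass (mean -0.38, limma adjusted p = 0.0694). For Col6a3 no probe was named here. Col7a1, the anchoring fibril collagen, had log2 ratios of -0.86, -0.69, -0.25 and 0.15 (mean -0.41 ± 0.45, SD, n = 4; limma adjusted p = 0.231), with replicate 4 on the other side of 0.

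**Figure D4:**
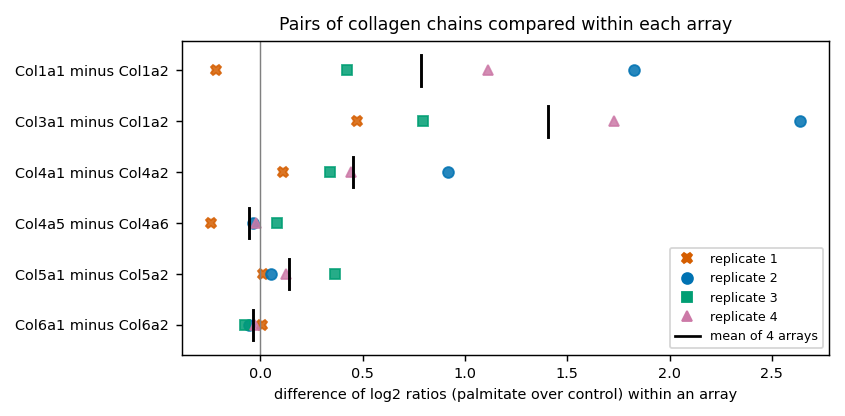
Difference between the log2 ratios of 2 collagen genes within each of the 4 arrays (x axis, symbols by replicate, black bar for the mean). Col4a1 exceeds Col4a2 and Col3a1 exceeds Col1a2 on all arrays, while Col6a1 and Col6a2 lie near a difference of 0. Col4a5 minus Col4a6 (brightest probes) runs from -0.24 on replicate 1 to 0.08 on replicate 3.

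The values were known when the 6 pairs in the plot of differences were chosen, so the differences are given as a description. Col3a1 exceeded Col1a2 by 0.47, 2.64, 0.79 and 1.73 (mean 1.41 ± 0.98, SD, n = 4). Col1a1 minus Col1a2 averaged 0.78 ± 0.88 and was -0.22 on replicate 1. Col5a1 minus Col5a2 averaged 0.14 ± 0.16 and was above 0 on all 4 arrays. The pairs Col5a1 and Col5a2, Col6a1 and Col6a2, and Col4a5 and Col4a6 thus differed by less than 0.4 on every array, and Col1a1 and Col1a2 by up to 1.83.

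Col18a1 belongs to the basement membrane and its end fragment is endostatin, an inhibitor of vessel growth. It had log2 ratios of -0.55, -0.78, 0.06 and -0.17 (mean -0.36 ± 0.37, SD, n = 4; limma adjusted p = 0.228). The unadjusted p of 0.0495 in limma was not under 0.05 without replicate 1, 2 or 4. A second, slightly dimmer Col18a1 probe had a mean of -0.23 and an unadjusted p of 0.120 in limma. The fibril-associated collagens Col9a1, Col9a2, Col14a1, Col16a1 and Col22a1, which decorate fibrils, had means from -0.10 to 0.02, and none had an unadjusted p under 0.05. The transmembrane collagens Col17a1, Col23a1 and Col25a1 had means of -0.06, 0.01 and -0.02. Col23a1 and Col25a1 were dim, with mean log2 signals of 7.38 and 7.47, against 7.26 for a probe of the untested Col15a1. Col9a1 and Col22a1 were as dim (7.38 each), so means near 0 say little about these genes.

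The prolyl 4-hydroxylase alpha subunits stabilise the helix by hydroxylating proline. Their means were 0.03 ± 0.15 for P4ha1, -0.16 ± 0.15 for P4ha2 and -0.10 ± 0.13 for P4ha3 (SD, n = 4). None of these 3 genes had an unadjusted p under 0.05 (limma adjusted p 0.847, 0.332 and 0.521). P4ha2 was below 0 on all 4 arrays, with values of -0.37 to -0.03. The 95% interval of P4ha1 was -0.18 to 0.25.

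The lysyl hydroxylases prepare lysines for cross-links and sugars. Plod1 averaged -0.18 ± 0.38, Plod2 -0.27 ± 0.34 and Plod3 -0.16 ± 0.26 (SD, n = 4), with limma adjusted p of 0.507, 0.307 and 0.435. All 3 means were below 0, but on replicate 3 all 3 genes were above 0 (0.34, 0.16 and 0.09). With median centring of each array instead of loess, which put the median of all tested probes at 0.18, the values were 0.098 for Plod1, 0.023 for Plod2, 0.14 for Plod3 and 0.15 for P4ha3, above 0 but below that median, and 0.19 for P4ha2.

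The lysyl oxidases start the covalent cross-links of collagen and elastin, and their means lay on both sides of 0. Lox had log2 ratios of -0.03, 0.91, 0.50 and 0.50. Replicates 2 to 4 were well above 0 and replicate 1 was at 0. The mean was 0.47 ± 0.39 (SD, n = 4), a 1.38-fold level (limma adjusted p = 0.163), and a second Lox probe gave 0.45. Without replicate 1 the mean was 0.64 (1.55-fold, limma adjusted p = 0.0141). The log2 signals of control (12.08 to 12.22) and palmitate cultures (12.09 to 12.99) overlapped through replicate 1.

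Loxl2, which also cross-links the type IV network, had log2 ratios of 0.20, -0.79, -0.46 and -0.65. Its sign on replicate 1 was opposite to that on the other 3 arrays. The mean was -0.42 ± 0.44 (SD, n = 4; limma adjusted p = 0.214), and it was -0.63 without replicate 1 (limma adjusted p = 0.0104). The 3 tested Loxl2 probes had means from -0.42 to -0.17. Only the brightest had an unadjusted p under 0.05 in limma, and the others had 0.236 and 0.117. Loxl1, Loxl3 and Loxl4 had means of 0.13 ± 0.26, 0.10 ± 0.45 and 0.21 ± 0.35 (SD, n = 4), none with an unadjusted p under 0.05. The probes of Loxl1 and of Loxl4 differed in sign, with means of -0.24 and 0.13 for Loxl1, and -0.05 and 0.21 for Loxl4. Without replicate 4 the mean of Loxl3 was -0.01. Among the 13 members with several tested probes, Col16a1 was the only other gene whose probes differed in sign.

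Pcolce binds the end propeptide of fibrillar procollagens and speeds its removal. Its log2 ratios were -0.24, -0.67, -0.32 and -0.32, below 0 on all 4 arrays, and replicate 2 was lowest. The mean was -0.38 ± 0.19 (SD, n = 4), a 1.31-fold lower level (limma adjusted p = 0.129). Signal of Pcolce (log2) was 17.12 to 17.35 in control and 16.68 to 16.95 in palmitate cultures, without overlap. Without replicate 1 the mean was -0.43 (limma adjusted p = 0.0349). Serpinh1, the collagen chaperone, had log2 ratios of -0.34, 0.40, 0.10 and 0.64, and a mean of 0.20 ± 0.42 (SD, n = 4; limma adjusted p = 0.498).

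Counted over all 42 tested members, 6 were below 0 on all 4 arrays (Col11a1, Col4a5, Col5a2, Col9a2, P4ha2 and Pcolce), where the background was 16.9% of all genes. Only Col3a1 and Col4a1 were above 0 on all 4, against 15.7% of all genes. Palmitate signals lay wholly below control signals for 4 members (Col4a5, Col5a2, Col9a2 and Pcolce), against 8.45% of all genes. They lay wholly above for 2 (Col3a1 and Col4a1), against 5.33%. In these counts Col11a1 and Col9a2 were dim, with mean log2 signals of 7.88 and 8.02. Of the 10 members with an unadjusted p under 0.05, only Col3a1, Col4a5, Col5a2 and Pcolce kept it without each array in turn. Relative to the median of all tested probes after median centring instead of loess, the 7 lower members were still below and the 3 higher members still above, although the centred values of Pcolce and Col5a1 were above 0 and none of the 7 had an unadjusted p under 0.05.

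**Figure D5:**
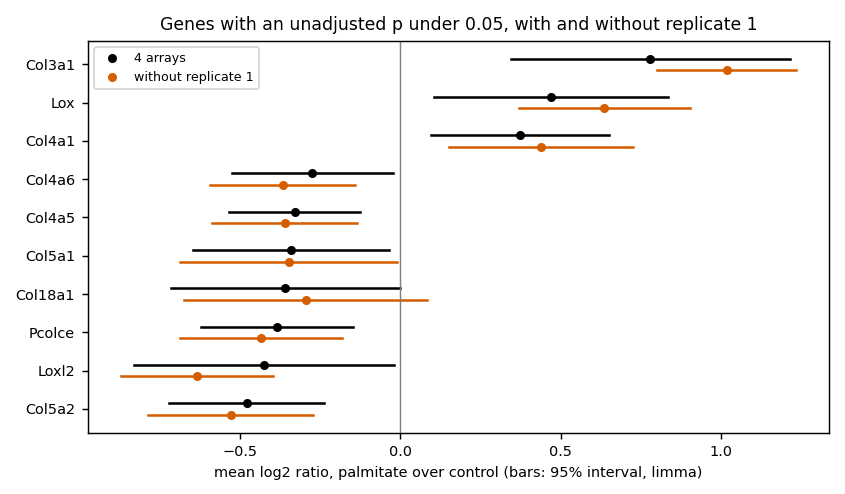
Mean log2 ratio of palmitate over control with its 95% interval from limma (x axis) for the 10 members with an unadjusted p under 0.05, over 4 arrays (black) and without replicate 1 (orange). Without replicate 1 the means of Col3a1, Lox and Loxl2 lie farther from 0, and the interval of Col18a1 includes 0.

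Other genes of the collagen pathway were taken from 6 lists of 66 genes, of which 54 were tested. At an unadjusted p of 0.05 from limma 12 of these 54 genes were lower and 6 of them higher, where all genes had 13.4% lower and 10.8% higher. None passed the adjusted p over the 4 arrays. Without replicate 1, 5 of the 54 passed it in limma, with P3h3, Bgn, Mmp14 and Tgfb2 lower and Fbn1 higher, where all genes had 9.83% lower and 8.69% higher. The list of procollagen proteinases, which cut the propeptides, also holds Pcolce2, which is not a proteinase. It had 4 lower of 5 tested genes, Pcolce2 among them, with a list median of -0.50, against 0.0017 for all genes. Bmp1, the proteinase that Pcolce assists, had log2 ratios of -1.16, -1.32, -0.17 and -0.08 and a mean of -0.68 ± 0.64 (SD, n = 4; limma adjusted p = 0.177). Adamts2 (-0.50 ± 0.40) and Adamts14 (-0.51 ± 0.39), which remove the amino-terminal propeptide, and Pcolce2 (-0.27 ± 0.13), a relative of Pcolce, were below 0 on all 4 arrays (SD, n = 4). The fifth gene, Tll1, averaged -0.06. Without replicate 1 none of the 5 passed the adjusted p in limma.

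Of 15 tested folding and modification partners, only P3h3, a proline 3-hydroxylase, had an unadjusted p under 0.05, with a mean of -0.72 ± 0.42 (SD, n = 4; limma adjusted p = 0.119, and 0.0350 without replicate 1). Of 13 tested fibril partners, 4 were lower: biglycan (Bgn, -0.76, limma adjusted p 0.141 and 0.0464 without replicate 1), fibulin 1 (Fbln1, -0.38), fibromodulin (Fmod, -0.29) and periostin (Postn, -0.24). Fibrillin 1 (Fbn1), a microfibril protein, was higher with log2 ratios of 0.35, 0.54, 0.70 and 0.55 and a mean of 0.54 ± 0.14 (SD, n = 4; limma adjusted p = 0.118, and 0.00922 without replicate 1), and so was thrombospondin 2 (Thbs2, 0.25). Among collagen-degrading enzymes 2 of 3 tested were lower, Mmp14 (-0.61, limma adjusted p 0.131 and 0.0483 without replicate 1) and Mmp2 (-0.43). Of the 12 genes of TGF-beta signalling, the main inducer of collagen genes, Tgfb1 (0.35), Smad3 (0.20) and Ski (0.21), a Smad repressor, were higher. Tgfb2 was lower (-0.40, limma adjusted p 0.128 and 0.0136 without replicate 1). Among 6 tested collagen receptors only the integrin chain Itga1 (0.29) had an unadjusted p under 0.05. At this limit 13.4% of all genes were lower and 10.8% higher. With 3 to 15 tested genes in a list, these counts are not results about the lists.

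The cell type of the cultures was checked with lists of markers. All 7 myoblast markers were tested, with means from -0.13 for Des and -0.08 for Met to 0.24 for Myod1 and 0.41 for Myf5, and a list median of 0.11. Only Myod1 among them had an unadjusted p under 0.05 (0.0491 in limma). The summed signals of the myoblast list were 20121 to 24932 in control and 18184 to 25410 in palmitate cultures. Among 7 fibroblast markers, Thy1, Dpt and Tcf21 were never well above background, and the other 4 were tested. Means were 0.21 for Pdgfra, 0.03 for Ly6a, -0.10 for Pi16 and -0.49 for Gli1. Only Gli1 had an unadjusted p under 0.05 (0.0138 in limma). The summed signals of the fibroblast list were 9853 to 12510 in control and 9642 to 11758 in palmitate cultures. Of the markers of differentiated muscle 6 of 7 were tested, with a list median of 0.07. Myog (0.30) and Myh3 (0.32) had an unadjusted p under 0.05, Tnnt3 was at 0.16, and Acta1 (-0.08), Mymk (-0.06) and Actn3 (-0.01) were below 0. The list had summed signals of 14764 to 17100 in control and 13262 to 17663 in palmitate cultures. Adipocyte markers had 4 of 6 genes never above background, and Fabp4 and Cidec had means of 0.01 and 0.04. The summed signals of the adipocyte list were 325 to 337 in control and 313 to 370 in palmitate cultures. Of 5 macrophage markers Lyz2 was never above background, and 3 were tested. Csf1r had log2 ratios of 0.26, -0.40, -0.23 and -0.28 (mean -0.16), Cd14 had a mean of 0.21 and Adgre1 of -0.04. None of these had an unadjusted p under 0.05 in limma. The summed signals of the macrophage list were 1853 to 2008 in control and 1721 to 2366 in palmitate cultures. Of 6 endothelial markers Cdh5 and Tek were never above background, and Pecam1 had a mean of -0.14. Kdr had log2 ratios of 0.98, -1.33, -1.09 and -0.93 (mean -0.59 ± 1.06, SD, n = 4; limma adjusted p = 0.386, and 0.00281 without replicate 1), with replicate 1 opposite in sign to the others as for Loxl2. The summed signals of the endothelial list were 2398 to 3274 in control and 1305 to 5836 in palmitate cultures. The part of these cell types in the collagen values was not tested.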

How the data were processed

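Total RNA was hybridised to 4 Agilent two-colour arrays, read with Agilent Feature Extraction 10.7.3.1 per the labels. The analysis started from the uncorrected intensity values that the authors deposited for each spot and its local background, as medians over pixels. The authors also deposited intensity values that the scanner software had processed (background and dye), and a table of log2 ratios that matches these to within 3e-06. Flag columns deposited by the authors mark spots above background, saturated or outlying.

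Background was corrected by normexp (offset 50), dyes were normalized by loess (controls at weight 0) and mean log2 ratios were tested against 0 in limma 3.58.1 (R 4.3.3) with Benjamini-Hochberg adjustment, so the 2 cultures of an array are paired. Outlying spots were left out, and spots of a probe averaged. Tested were the 24055 of 39429 probes with 1 or both channels well above background on every array. RefSeq accessions named 26055 probes. A gene is its brightest tested probe. Signal ranges use Aquantile scaling. The fit was tested on simulated data (24055 probes): it recovered 78% of 100 changes of 1 (log2) and 98% of 100 changes of -2, and called 6 unchanged probes. The simulated noise was independent between arrays and probes, whereas replicate 1 departed from the other arrays across probes. These shares therefore do not state what the fit can detect in the real arrays. Precision is limited by the number of arrays, on which 58.2 to 71.0% of the probes were well above background in a channel.

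Members, lists and tests were chosen with earlier results of these data known. Named were 24 fixed members and every member with an unadjusted p under 0.05; other members were named after their values were seen. Alternatives changed the background correction, normalization, filters, source, pairing, test, variance model, probe choice and replicates.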

Additional observations from a re-analysis of the deposited data

Results flagged for a closer look

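Col14a1, a fibril-associated collagen with a dim mean log2 signal of 8.06, had 1 array far from the others. Its log2 ratio was -0.14 on replicate 1 and 0.06 to 0.10 on replicates 2 to 4, so the gap made up 0.83 of the whole range, above Dixon's 95% critical value for 4 values. Among the 42 members examined in this way Col14a1 was the only one, and chance marks about 1 in 20. The mean of Col14a1 was 0.02 ± 0.11 (SD, n = 4; limma adjusted p = 0.898).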

How the results depend on the processing

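No probe passed the adjusted p of 0.05 with a fold of 1.6 over the 4 arrays in limma, while 2670 were lower and 2580 higher at an unadjusted p under 0.05. With processed signals or the deposited table of log2 ratios 13 probes were higher, with a coefficient of variation under 50% 2 were, with no replicate block (the pairing of cultures by array left out) 16 were higher and 14 lower, and with the methods' t-test 1 was higher and 2 lower. Leaving out 1 replicate at a time gave 0 to 549 higher and 0 to 748 lower probes, all of them without replicate 1. Counts of members at an unadjusted p under 0.05 ran from 1 to 7 higher and from 3 to 9 lower in these fits. The methods' t-test had 3 lower members. With arrays centred on their medians, 1 member was higher, 0 were lower, and the member median was 0.074 (all tested probes 0.18). The shares of all genes at this limit in the same fits are not given here. These member counts are therefore not a result about the members. Without replicate 1, 9.83% of all genes were lower and 8.69% higher even at the adjusted p of 0.05 in limma. With arrays centred on their medians, the sign turned for Col4a2 (0.22), Col5a1 (0.0015), Col6a2 (0.00076) and Pcolce (0.077). So it did for P4ha2 (0.19), P4ha3 (0.15), Plod1 (0.098), Plod2 (0.023) and Plod3 (0.14). The sign also turned for Loxl1 with the mean of its probes (-0.057). With 1 replicate left out at a time, means ran from -0.024 (without replicate 3) to 0.415 (without 1) for Col1a1, from -0.233 (without 3) to 0.0577 (without 2) for Col4a2, from -0.0107 (without 4) to 0.321 (without 1) for Loxl3 and from -0.0361 (without 1) to 0.0865 (without 3) for P4ha1. The causes were not tested. Of 25 named genes, 9 passed without replicate 1, and the replicate block changed no other call.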
